A study of Mus musculus with 12 samples.

Results

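Tcf7, Lef1, Satb1, Bach2, Foxo1, Foxp1, Id2 and Id3 encode nuclear regulators that are studied together as transcription factors of naive T cells. They were chosen by symbol, with earlier results of these data known, and make up 8 of the 45706 genes in the deposited count table. All 8 passed the filter on low counts, which kept 15922 genes. The study sequenced polyadenylated RNA of murine T cells that were either WT or lacked coronin 1A, an actin-binding protein of white blood cells encoded by Coro1a. Conventional and regulatory T cells of each genotype gave 3 libraries per group, 12 in all, and the groups are called WT conventional, KO conventional, WT regulatory and KO regulatory here. No treatment is labelled, and the labels give no strain, age, sex, organ or sorting gate. Nothing in them says that libraries of a group came from separate mice, so p-values here reflect only how far these libraries scatter. Part of that scatter may be technical. Xist and Y-linked reads, given below, differ within every group, so its libraries are not all repeats of 1 sample.

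A naive T cell has matured but has not yet met its antigen, and it stays small, quiescent and able to recirculate. TCF-1, the product of Tcf7, and LEF1 are HMG-box proteins that bind the same DNA motif and recruit TLE corepressors or beta-catenin. SATB1 organises chromatin and is known to be reduced in regulatory T cells by FOXP3. FOXO1 turns on homing and survival genes such as Ccr7, Klf2 and Il7r and leaves the nucleus when AKT phosphorylates it, FOXP1 supports quiescence, and BACH2 represses effector genes together with small MAF proteins. ID2 and ID3 have no DNA-binding region and act by pairing with E proteins (products of Tcf3, Tcf4 and Tcf12), and Id3 is commonly associated with naive and memory cells and Id2 with effector cells.

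The genotype label was checked on Coro1a, which had 2124 to 2712 CPM (read counts scaled to the size of the library) in the 6 WT libraries and 20.9 to 47.3 CPM in the 6 KO libraries. Foxp3, the defining factor of regulatory T cells, averaged 23.7 ± 3.07 CPM in conventional libraries of WT and 50.1 ± 18.9 in those of KO (SD, n = 3, here and below). In regulatory libraries it averaged 520.1 ± 53.4 for WT and 573 ± 113 for KO. Libraries held between 19686870 and 33404302 counts in genes, and each member had between 1160 and 66989 counts in every library. All 12 libraries held T cell transcripts, but the summed level of 6 T cell genes (Lat, Cd5, Cd6 and the CD3 genes Cd3d, Cd3e and Cd3g) ran from 3063 to 3352 CPM in conventional libraries of WT and from 1949 to 2316 in those of KO. Regulatory libraries reached 1683 to 2323 CPM with the WT genotype and 1083 to 1663 with the KO genotype. In bulk RNA, fewer cells of a type and less RNA per cell cannot be told apart. In KO conventional libraries the summed markers of macrophages and monocytes (7 genes) reached 1362 to 3029 CPM against 203 to 259 in WT, and those of neutrophils (6 genes) reached 195 to 399 CPM against 0.538 to 1.70. NK cell markers (7 genes) were at 302 to 571 CPM in KO conventional libraries, against 34.7 to 55.7 for WT. The regulatory libraries of both genotypes held B cell markers (7 genes) at 3059 to 4277 CPM and erythroid markers (6 genes) at 5044 to 9214 CPM, against at most 41.7 and 76.1 CPM in any conventional library. No marker of the lists named so far was at 0 throughout a group. The highest sum in WT conventional, KO conventional, WT regulatory and KO regulatory libraries was 4.73, 90.7, 71.4 and 120.4 CPM for dendritic cells (7 genes), and 6.98, 40.4, 6.25 and 21.3 for mast cells and basophils (5 genes). It was 7.87, 50.2, 1973 and 726 CPM for plasma cells (4 genes), 21.8, 11.2, 57.7 and 38.5 for CD8 T cells (2 genes), and 12.3, 4.82, 19 and 52.9 for immature thymocytes (4 genes). Of these markers Tnfrsf17, Rag1, Rag2 and Ptcra had no count in any WT conventional library, and Rag2 had none in any KO conventional library. Regulatory T cell markers (5 genes) ran from 128 to 183 CPM in WT and 250.2 to 414 CPM in KO conventional libraries, against 1434 to 1943 CPM over the 6 regulatory libraries. In 2 of the 12 libraries, WT regulatory replicate 3 and KO regulatory replicate 1, Xist and Y-linked genes both exceeded 10 CPM, and results that change without these libraries are given with both values. Xist ran from 1211 to 1746 CPM in replicates 1 and 2 of both conventional groups, with Y-linked genes at 0.0326 CPM or less. Y-linked genes ran from 456 to 541 CPM in replicate 3 of both conventional groups, with Xist at 0.448 CPM or less. In the regulatory libraries without this mixture they ran from 287 to 308 CPM, with Xist at 1.51 CPM or less. Cell type was thus partly confounded with these reads.

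**Figure D1:**
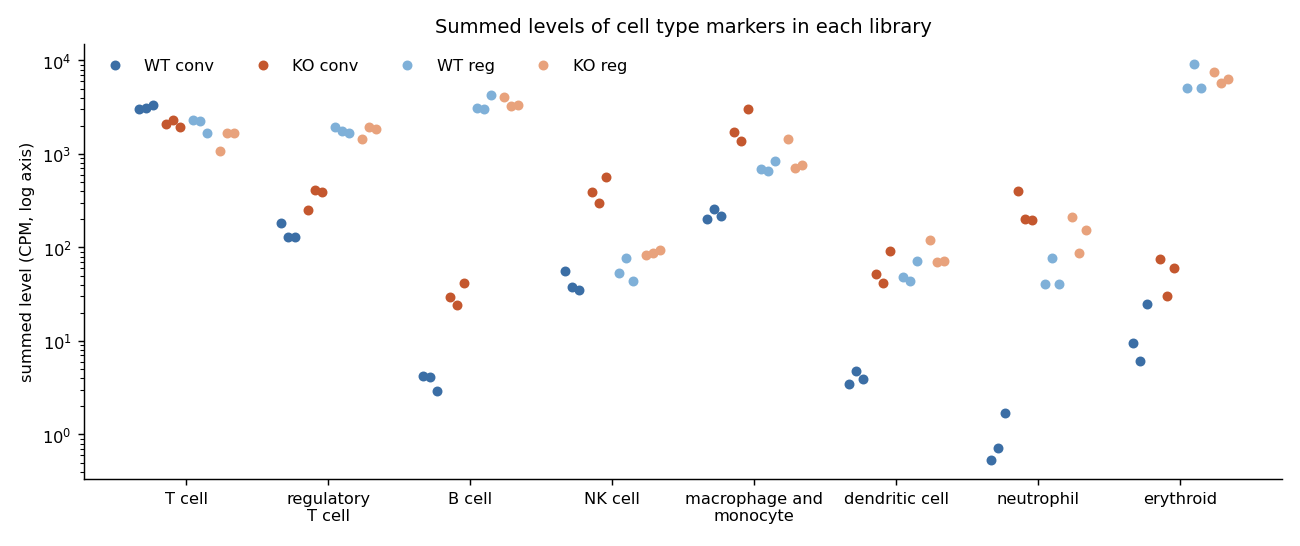
Summed levels of marker genes for 8 cell types (horizontal axis) in CPM on a logarithmic vertical axis, with 1 point per library and 1 colour per group. T cell markers sit highest in WT conventional libraries (3063 to 3352 CPM), macrophage, neutrophil and NK markers are higher in KO than in WT conventional libraries, and B cell markers (3059 CPM or more) and erythroid markers (5044 CPM or more) reach these levels in the 6 regulatory libraries alone.

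A gene is said to have risen or fallen where edgeR's quasi-likelihood test gave a Benjamini-Hochberg adjusted p under 0.05 over all 15922 genes. Between KO and WT conventional T cells, 6 members fell in the KO (Tcf7, Lef1, Satb1, Bach2, Foxo1, Foxp1) and 2 rose (Id2, Id3). The background of genes called in that comparison was 48.7% (25.4% lower, 23.3% higher), and for groups that do not overlap, as in all 8 members, it was 63.6%. Between KO and WT regulatory T cells, 2 members fell (Lef1, Foxp1) and none rose, where 7.83% of all genes were called (3.82% lower, 4.01% higher). Groups did not overlap there for Lef1, Satb1 and Foxp1, against 26.2% of all genes. In WT, 6 members were lower in regulatory than in conventional T cells and Id3 was higher, against a background of 72.4% called (33.3% lower, 39.1% higher), and 7 members did not overlap, against 75.3% of genes. In KO, 5 members were lower and Id3 was higher in regulatory cells, against 67.8% called (31.7% lower, 36.1% higher), and 5 members did not overlap, against 72.7%. The median log2 fold change of the 8 members was -0.63, -0.23, -0.74 and -0.48 in these 4 comparisons, beside -0.05, 0.00, 0.07 and 0.03 for all genes tested. The comparisons share libraries, so they are not independent of each other. Between cell types the share of members called, 7 and 6 of 8, was not far above that background and is no result about them as a group.

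**Figure D2:**
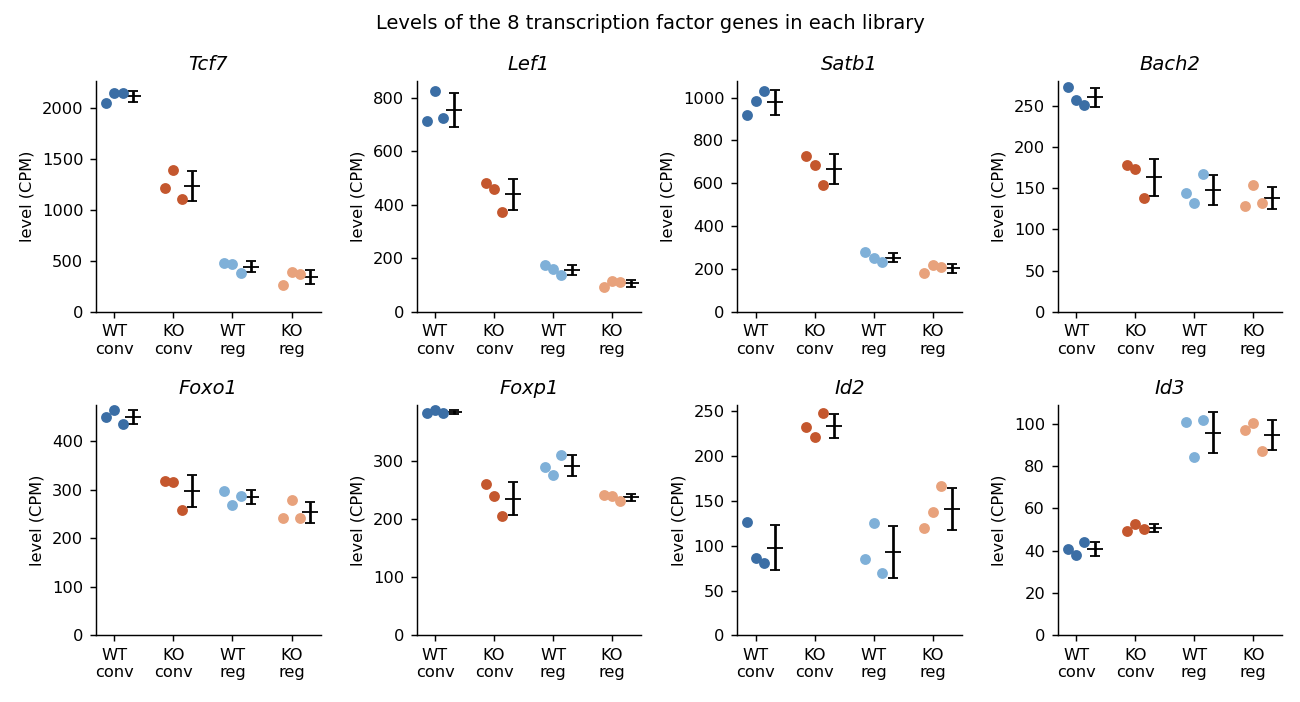
Level of each of the 8 genes (1 panel each, vertical axis in CPM from 0) in WT conventional, KO conventional, WT regulatory and KO regulatory libraries, with 1 point per library and the mean with its SD (n = 3) beside the points. Tcf7, Lef1 and Satb1 step down from WT conventional to KO conventional to regulatory libraries, Id2 is highest in KO conventional libraries (221 to 248 CPM), and Id3 is highest in the regulatory libraries (84.5 to 102 CPM).

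Tcf7 (ENSMUSG00000000782, GRCm38 chr11:52252371-52283014, minus strand), the most abundant of the 8, was at 2054, 2149.6 and 2146 CPM in the WT conventional libraries. The KO conventional libraries held 1214, 1393 and 1104 CPM, and all 3 were below every WT library. Tcf7 fell by 0.77 on the log2 scale in KO conventional T cells (SE 0.14, 95% interval -1.10 to -0.45, adjusted p = 0.00105). Regulatory T cells had far less of it, with 478, 469 and 379 CPM for WT beside 265, 385 and 375 CPM for KO, and these genotypes overlapped. The regulatory level was 4.79-fold lower than the conventional level in WT (adjusted p = 1.45e-07) and 3.62-fold lower in KO (adjusted p = 8.93e-07). Between KO and WT regulatory cells its log2 difference was -0.37 (SE 0.14, interval -0.70 to -0.04) and did not pass the adjustment (adjusted p = 0.128). DESeq2 gave that difference an adjusted p of 0.0411.

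Lef1 (ENSMUSG00000027985, chr3:131110471-131224356, plus strand), the partner of Tcf7 at shared sites, followed a similar course. The WT conventional libraries stood at 713, 826 and 723 CPM, and those of KO at 482, 459.9 and 374 CPM, with no overlap. It fell by 0.78 on the log2 scale in the KO (SE 0.12, adjusted p = 0.000430). The regulatory libraries of WT stood at 176, 158 and 137 CPM, those of KO at 91.4, 116 and 112 CPM, so every KO library lay below every WT library. This regulatory difference was a fall by 0.55 on the log2 scale, or 1.47-fold (SE 0.12, adjusted p = 0.0229). The call was lost without WT regulatory replicate 1 (-0.47, adjusted p = 0.0802) or replicate 2 (-0.55, 0.0694), and without KO regulatory replicate 1 (-0.45, 0.0703) or replicate 3 (-0.59, 0.0553). It was also lost when only the regulatory libraries were fitted (adjusted p = 0.0709) and with scaling to 6 T cell genes (-0.03, adjusted p = 0.842). Lef1 was 4.81-fold lower in regulatory than in conventional cells in WT (adjusted p = 5.38e-08) and 4.11-fold lower in KO (adjusted p = 1.83e-07). The ratio of Tcf7 to Lef1 counts within a library, which needs no scaling between libraries, had geometric means of 2.81 (WT) and 2.82 (KO) for conventional and 2.82 (WT) and 3.18 (KO) for regulatory libraries. Its log2 value was 1.49 ± 0.10 for WT conventional and 1.67 ± 0.11 for KO regulatory libraries, and the WT groups and KO conventional libraries differed by less than their SDs although Tcf7 itself spanned 6.19-fold between the highest and the lowest group mean.

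Satb1 (ENSMUSG00000023927, chr17:51736187-51833290, minus strand), the chromatin organiser, was at 918, 983 and 1032 CPM in WT conventional libraries. KO conventional libraries held 726, 687 and 590.4 CPM, below all 3 of WT. Satb1 fell by 0.55 on the log2 scale (SE 0.10, adjusted p = 0.000911), a direction that turned to 0.04 with scaling to 6 T cell genes. Regulatory libraries of WT reached 277, 249 and 233 CPM, those of KO 179, 217 and 211 CPM. These genotypes did not overlap, but the log2 difference of -0.32 (SE 0.10) had an adjusted p of 0.0714, with 0.00972 by DESeq2 and 0.0440 without WT regulatory replicate 3. Satb1 was 3.87-fold lower in regulatory than in conventional cells in WT (adjusted p = 3.10e-08) and 3.30-fold lower in KO (adjusted p = 1.12e-07), so Tcf7, Lef1 and Satb1 were each 3.30-fold or more lower in regulatory cells of both genotypes.

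Foxo1 (ENSMUSG00000044167, chr3:52268336-52353221, plus strand), the forkhead factor held back by AKT, varied less. Conventional libraries had 449, 464 and 436 CPM for WT but 317, 315 and 259 CPM for KO, with no overlap, and Foxo1 fell by 0.60 on the log2 scale (SE 0.08, adjusted p = 0.000203). In regulatory libraries the WT values were 297, 269 and 287 CPM and the KO values 242, 279 and 242 CPM, and these genotypes overlapped. The regulatory difference was -0.16 (SE 0.08, interval -0.36 to 0.03, adjusted p = 0.250). Foxo1 was 1.58-fold lower in regulatory than in conventional cells in WT (adjusted p = 2.61e-05). In KO the same difference was a fall by 0.23 on the log2 scale (SE 0.08, adjusted p = 0.0317). That KO call was lost without KO conventional replicate 1 (-0.18, adjusted p = 0.117) or 2 (-0.18, 0.111), without KO regulatory replicate 1 (-0.19, 0.0985) or 3 (-0.19, 0.107), with a term for Xist (0.0580), with only the KO libraries fitted (0.0766), with scaling to 6 T cell genes, which turned its direction (0.35, 0.102), and without both libraries with Xist and Y-linked reads (-0.19, 0.107).

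Foxp1 (ENSMUSG00000030067, chr6:98925338-99522721, minus strand), the quiescence factor, stood at 382, 387 and 382 CPM in WT conventional libraries. The KO conventional libraries were lower and more scattered, at 259.8, 239.7 and 205 CPM. Foxp1 fell by 0.71 on the log2 scale (SE 0.08, adjusted p = 3.40e-05). The WT regulatory values were 289, 275 and 310.3 CPM and the KO values 242, 239 and 230.2 CPM, with no overlap. That difference was a fall by 0.30 on the log2 scale (SE 0.08, adjusted p = 0.0390). The call was kept in 2 of the 12 fits that left out a library, those without KO conventional replicate 1 or 3, and was lost in the other 10, with adjusted p up to 0.104 and log2 differences from -0.34 to -0.25. It was also lost without both libraries with Xist and Y-linked reads (-0.26, adjusted p = 0.106), with the replicate number as a block (adjusted p = 0.0651), with upper-quartile scaling (-0.28, 0.0518) and with only the regulatory libraries fitted (-0.29, 0.0796). Scaling to 6 T cell genes turned its direction (0.23, adjusted p = 0.333). Foxp1 was lower in regulatory than in conventional cells of WT by 0.40 on the log2 scale (SE 0.08, adjusted p = 0.000604), a direction that turned to 0.25 with scaling to 6 T cell genes. In KO the regulatory and conventional means were 237 ± 6.08 and 235 ± 27.9 CPM, and the log2 difference was 0.01 (SE 0.08, adjusted p = 0.876).

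Bach2 (ENSMUSG00000040270, chr4:32238804-32586108, plus strand), the repressor of effector genes, stood at 273, 257 and 252 CPM in conventional libraries of WT, and at 179, 174 and 138 CPM in those of KO. The genotypes did not overlap, and Bach2 fell by 0.67 on the log2 scale (SE 0.11, adjusted p = 0.000505). Its regulatory values were 144, 133 and 168 CPM for WT, and 129, 154 and 133 CPM for KO. These overlapped widely, with a log2 difference of -0.10 (SE 0.11, interval -0.35 to 0.15, adjusted p = 0.611) that turned to 0.05 without both libraries with Xist and Y-linked reads. Bach2 was 1.76-fold lower in regulatory than in conventional cells in WT (adjusted p = 3.98e-05). In KO the difference was -0.24 (SE 0.11) with an adjusted p of 0.0691. It was called without KO conventional replicate 3 (-0.35, adjusted p = 0.00880), WT regulatory replicate 3 (-0.24, 0.0465) or KO regulatory replicate 2 (-0.39, 0.0159). It was also called with a filter at a mean of 5 CPM.

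Id2 (ENSMUSG00000020644, chr12:25093799-25097140, minus strand) and Id3 (ENSMUSG00000007872, chr4:136143497-136145755, plus strand) encode inhibitors of E proteins that share a mechanism but were unequally distributed over the groups. Their promoters are shown because E proteins bind E boxes, and the search asked which of the pair has one directly upstream of its RefSeq start. Both windows lie within the gene spans above, which reach further upstream than these starts. The windows are the 250 bases before the transcription start from RefSeq on GRCm38.p6, chr12:25096093-25096342 (minus strand) for Id2 and chr4:136143572-136143821 (plus strand) for Id3, with the E box motif CANNTG in capitals.
Id2: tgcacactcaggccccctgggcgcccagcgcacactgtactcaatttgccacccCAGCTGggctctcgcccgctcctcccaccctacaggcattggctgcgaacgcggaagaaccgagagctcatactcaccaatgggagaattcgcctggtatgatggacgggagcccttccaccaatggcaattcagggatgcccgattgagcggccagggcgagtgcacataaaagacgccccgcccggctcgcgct
Id3: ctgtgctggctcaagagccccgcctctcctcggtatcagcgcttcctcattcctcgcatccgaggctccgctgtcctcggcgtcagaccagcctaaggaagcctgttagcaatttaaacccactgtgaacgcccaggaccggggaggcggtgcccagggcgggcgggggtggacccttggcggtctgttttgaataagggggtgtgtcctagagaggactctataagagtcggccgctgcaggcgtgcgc
The Id2 window holds 1 match, which reads the same on both strands, and the Id3 window holds 0. Of 27025 promoter windows of the same length, 66% hold this motif, so a match says little, and both windows have a GC content of 62.8% beside a median of 52.0% over all windows.

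Id2 was at 126, 86.8 and 80.6 CPM in WT conventional libraries. KO conventional libraries held 232, 221 and 248 CPM, all far above the 3 of WT. Id2 rose 2.39-fold in the KO (log2 1.26, SE 0.21, interval 0.76 to 1.75, adjusted p = 0.000681). Among regulatory libraries those of WT had 84.7, 125 and 69.4 CPM and those of KO 119, 138 and 166 CPM, and these genotypes overlapped in replicate 2 of WT and replicate 1 of KO. The regulatory log2 difference was 0.60 (SE 0.21, adjusted p = 0.107), with an adjusted p of 0.0344 by DESeq2 and 0.0400 without WT regulatory replicate 2 (0.87). Between regulatory and conventional cells of WT the log2 difference was -0.07 (SE 0.21, adjusted p = 0.767), and its sign turned without WT conventional replicate 1 (0.15) or WT regulatory replicate 3 (0.10). In KO, Id2 was lower in regulatory cells by 0.73 on the log2 scale (SE 0.21, adjusted p = 0.00928), a call that was lost with scaling to 6 T cell genes (-0.18, adjusted p = 0.483). In KO conventional libraries, where Id2 was highest, the summed NK cell markers averaged 422 ± 137 CPM against 42.8 ± 11.3 in WT conventional libraries, and the part of such cells in the Id2 level was not tested.

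Id3 was the least abundant of the 8 in conventional cells, at 40.7, 37.8 and 44.3 CPM for WT beside 49.3, 52.6 and 50.4 CPM for KO. The genotypes did not overlap, and Id3 rose 1.24-fold in KO conventional cells (log2 0.31, SE 0.08, adjusted p = 0.0106), a call that was lost without WT conventional replicate 2 (0.25, adjusted p = 0.0514). Its regulatory values were 101, 84.5 and 102 CPM for WT beside 96.8, 100.4 and 87.0 CPM for KO, which overlapped. Their log2 difference was -0.02 (SE 0.08, adjusted p = 0.932). Id3 was the only one of the 8 that was higher in regulatory than in conventional cells by this test, by 2.34-fold in WT (adjusted p = 2.34e-07) and 1.87-fold in KO (adjusted p = 3.25e-06). B cells also express Id3, and the summed B cell markers of the regulatory libraries were at 3059 CPM or more. The part of these transcripts in the Id3 difference was not tested.

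The log2 ratio of Id3 to Id2 counts within a library does not depend on the scaling between libraries. Conventional libraries gave -1.63, -1.20 and -0.86 for WT beside -2.23, -2.07 and -2.30 for KO. Regulatory libraries gave 0.25, -0.56 and 0.55 for WT beside -0.30, -0.45 and -0.93 for KO. Id2 therefore exceeded Id3 in counts in all 6 conventional and all 3 KO regulatory libraries, and in WT regulatory libraries the order differed between replicates. The KO conventional ratios lay below all WT conventional ones (difference of means -0.97), and the regulatory ratios lay above the conventional ones in WT (1.31) and in KO (1.64). For each of these 3 differences the exact two-sided permutation test gave p = 0.1, the smallest that 3 libraries against 3 allow (adjusted p = 0.133 over 4 comparisons). The KO and WT regulatory ratios overlapped (difference -0.64, exact permutation p = 0.3, adjusted p = 0.3).

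**Figure D3:**
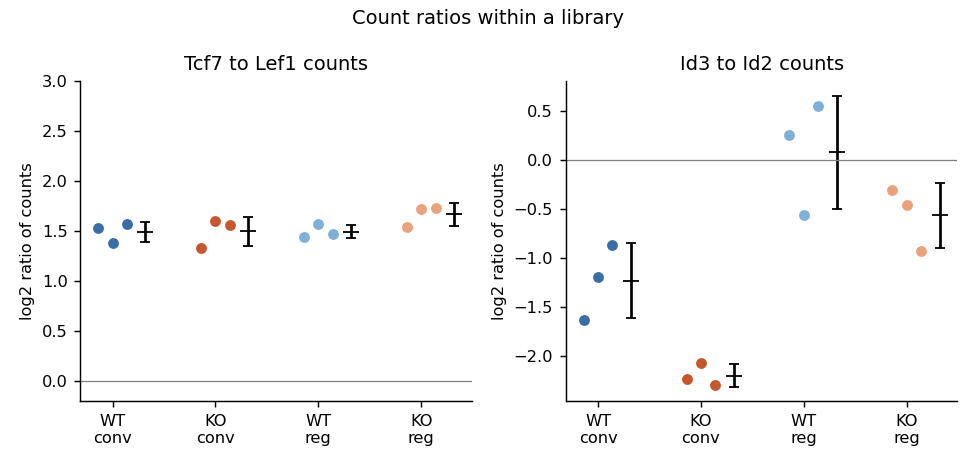
Log2 ratios of counts within a library (vertical axis) for Tcf7 to Lef1 and for Id3 to Id2 in the 4 groups, with 1 point per library and the mean with its SD (n = 3). Group means of the Tcf7 to Lef1 ratio lie between 1.49 and 1.67, and those of the Id3 to Id2 ratio between -2.20 (KO conventional) and 0.08 (WT regulatory).

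The knockout difference was compared between the cell types by an interaction term, whose positive sign means a less negative or more positive difference in regulatory than in conventional cells. It was called for 3 members, Bach2 (0.58, SE 0.15, adjusted p = 0.0219), Foxo1 (0.43, SE 0.12, adjusted p = 0.0235) and Foxp1 (0.41, SE 0.11, adjusted p = 0.0199), against a background of 21.3% of all genes (8.86% positive, 12.4% negative). These are the 3 members whose fall in KO conventional cells was larger than their difference in KO regulatory cells by this test. The part of B cell and other transcripts from outside the T lineage in these terms was not tested. For the HMG-box pair and Satb1 the terms were 0.40 for Tcf7 (SE 0.20, adjusted p = 0.174), 0.23 for Lef1 (SE 0.17, adjusted p = 0.393) and 0.23 for Satb1 (SE 0.14, adjusted p = 0.266). For the inhibitors they were -0.66 for Id2 (SE 0.30, adjusted p = 0.143) and -0.33 for Id3 (SE 0.12, adjusted p = 0.0725). Without KO regulatory replicate 2 the calls were lost for Bach2 (0.44, adjusted p = 0.0971), Foxo1 (0.31, 0.0839) and Foxp1 (0.35, 0.0888). That of Foxo1 was also lost without WT conventional replicate 2 (0.41, 0.0596) or WT regulatory replicate 2 (0.40, 0.0545). All 3 were lost with a filter at a mean of 5 CPM, at adjusted p of 0.0513, 0.0504 and 0.0633 for Bach2, Foxo1 and Foxp1. Tcf7 was called in addition without KO regulatory replicate 1 (0.56, adjusted p = 0.0237) and without both libraries with Xist and Y-linked reads (0.46, 0.0266). Id3 was called in addition without WT regulatory replicate 2 (-0.41, 0.0231), with upper-quartile scaling (-0.38, 0.0482) and with the filter at a mean of 5 CPM (-0.42, 0.0401).

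Because T cell transcripts made up different shares of the libraries, the members were also set against the 6 T cell genes. Scaling the libraries to these genes moved the median log2 fold change of all genes to 0.53 in both knockout comparisons, to 0.71 between cell types in WT and to 0.62 in KO. In KO conventional cells it left 2 members called, Id2 (1.84, adjusted p = 3.00e-05) and Id3 (0.90, adjusted p = 0.00405), both higher. Tcf7 (-0.19, adjusted p = 0.196), Lef1 (-0.20, 0.254), Foxp1 (-0.12, 0.604), Bach2 (-0.09, 0.707) and Foxo1 (-0.02, 0.949) kept a negative sign without a call, and Satb1 turned to 0.04 (0.839). These 6 therefore stayed close to the T cell genes and below the median of all genes on this scale. Among the members, Id2 alone was called in KO regulatory cells (1.13, adjusted p = 0.0107), and Lef1 stood at -0.03. In regulatory against conventional cells Tcf7, Lef1 and Satb1 stayed lower under this scaling in both genotypes, by 1.64, 1.64 and 1.32 on the log2 scale in WT and by 1.31, 1.48 and 1.16 in KO. Id3 stayed higher, at 1.88 in WT and 1.49 in KO. In WT, Bach2 (-0.16, adjusted p = 0.520), Foxo1 (-0.02, 0.934) and Foxp1 (0.25, 0.282) lost their calls and Id2 was called higher (0.52, 0.0481). In KO, Foxo1 (0.35, adjusted p = 0.102) and Id2 (-0.18, 0.483) lost their calls and Foxp1 was called higher (0.61, 0.0188). The interaction terms of Bach2 (0.49, adjusted p = 0.530), Foxo1 (0.37, 0.651) and Foxp1 (0.35, 0.769) lost their calls with this scaling, at which 951 genes were called in all. The split of all called genes moved with it, from 3706 higher and 4043 lower to 7006 and 60 in KO conventional cells and from 638 and 608 to 5116 and 41 in KO regulatory cells. Between cell types it moved from 6228 and 5302 to 9127 and 966 in WT and from 5747 and 5047 to 8296 and 1074 in KO, and for the interaction from 1411 and 1982 to 30 and 921. With upper-quartile scaling the split was 4057 higher and 2840 lower in KO conventional cells and 932 and 2123 for the interaction.

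Expressed as a percentage of the summed counts of the 6 T cell genes, Tcf7 was at 66.5 ± 2.28% in WT conventional, 58.2 ± 1.82% in KO conventional, 21.4 ± 1.00% in WT regulatory and 23.4 ± 0.958% in KO regulatory libraries. Lef1 was at 23.7 ± 2.40%, 20.7 ± 2.01%, 7.59 ± 0.519% and 7.41 ± 0.892% in the same order. Satb1 was at 30.7 ± 0.674%, 31.5 ± 2.65%, 12.3 ± 1.40% and 14.1 ± 2.11%. On this measure the step between cell types remained for these 3 genes, while the genotypes lay within or near their SDs for Lef1 and Satb1. Bach2 was at 8.20 ± 0.705%, 7.70 ± 0.739%, 7.37 ± 2.25% and 9.72 ± 1.996%. Foxo1 was at 14.15 ± 0.987%, 14.001 ± 0.961%, 13.97 ± 2.71% and 17.9 ± 3.98%, and Foxp1 at 12.1 ± 0.576%, 11.1 ± 1.12%, 14.4 ± 3.50% and 16.9 ± 4.72%. The mean of Foxp1 was thus higher in regulatory libraries of both genotypes, and those of Bach2 and Foxo1 in KO alone. Id2 was at 3.10 ± 0.907%, 11.1 ± 1.58%, 4.45 ± 1.01% and 9.77 ± 1.39%, so that both KO groups exceeded both WT groups. Id3 was at 1.28 ± 0.0694%, 2.40 ± 0.165%, 4.73 ± 1.18% and 6.74 ± 1.94%.

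**Figure D4:**
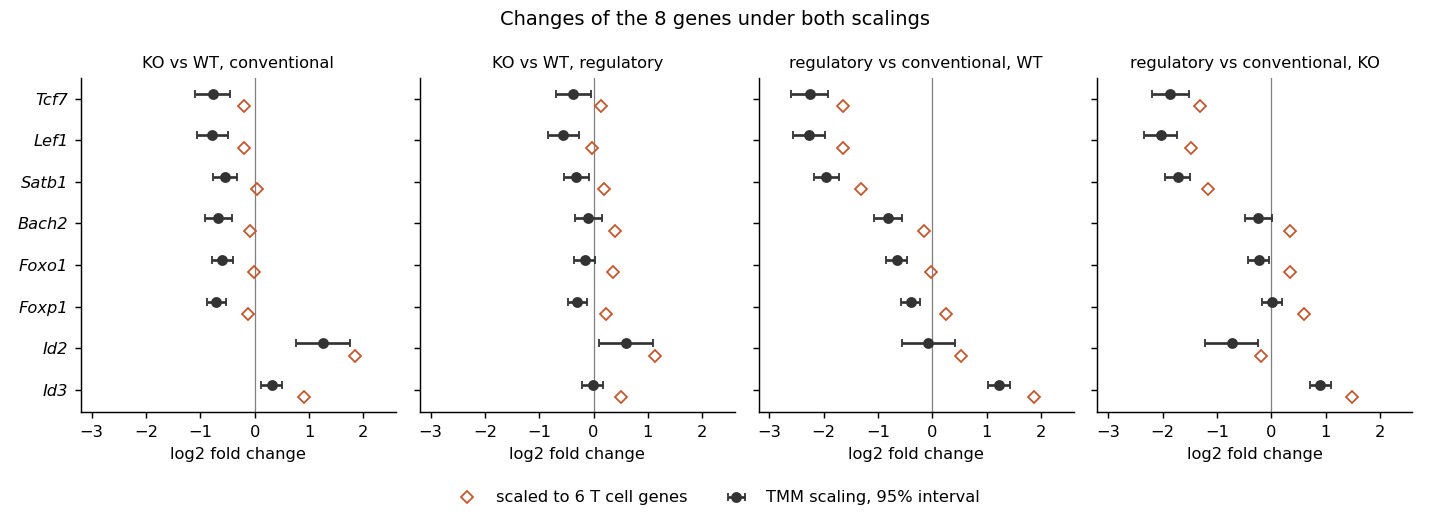
Log2 fold changes (horizontal axis) of the 8 genes (vertical axis) in 4 comparisons, with filled points and 95% intervals for TMM scaling and open diamonds for scaling to 6 T cell genes. The diamonds lie to the right of the points throughout, and Tcf7, Lef1 and Satb1 stay at -1.16 or below in both comparisons of regulatory with conventional cells.

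Levels were compared between genes per kilobase of merged exons. These cover all annotated transcripts of a gene (31 for Foxp1, 14 for Satb1, 2 for Tcf7), so the order of genes depends on the annotation. In WT conventional cells Tcf7 led with 806 ± 20.5 CPM per kb, followed by Lef1 at 85.8 ± 7.13. Foxo1 (51.9 ± 1.59), Satb1 (51.4 ± 2.99) and Id2 (40.1 ± 10.2) came next and did not differ beyond their spread, and Foxp1 (27.9 ± 0.206), Bach2 (26.2 ± 1.12) and Id3 (22.9 ± 1.80) were lowest. In KO conventional cells Id2 reached 95.8 ± 5.47 CPM per kb and lay above Lef1 at 49.9 ± 6.54. In WT regulatory cells Tcf7 remained the highest at 168 ± 20.9 CPM per kb, Id3 followed at 53.5 ± 5.48, and Satb1 was the lowest at 13.3 ± 1.15, with Bach2 at 14.9 ± 1.80. For KO regulatory cells the values were 130.2 ± 25.3 CPM per kb for Tcf7, 57.8 ± 9.68 for Id2, 52.9 ± 3.88 for Id3 and 10.7 ± 1.07 for Satb1.

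The order of the group means in CPM differed among the 8 genes, and neighbours in it are named where their libraries overlapped. Tcf7, Lef1, Satb1, Bach2 and Foxo1 all ran from WT conventional down through KO conventional and WT regulatory to KO regulatory libraries. No neighbours overlapped for Lef1 and Satb1, the WT and KO regulatory groups overlapped for Tcf7, and for Bach2 and Foxo1 the KO conventional group also overlapped the WT regulatory one. Foxp1 ran from WT conventional through WT regulatory to KO regulatory and KO conventional libraries, the last pair overlapping. Id2 ran from KO conventional through KO regulatory to WT conventional and WT regulatory libraries, with overlap at both lower steps. Id3 ran from WT regulatory through KO regulatory, which overlapped, to KO conventional and WT conventional libraries. The highest group mean exceeded the lowest 7.06-fold for Lef1, 6.19-fold for Tcf7 and 4.82-fold for Satb1, and 2.51-fold or less for the other 5. Thus 6 of the 8 had their highest level in WT conventional cells, whereas Id2 was highest in KO conventional and Id3 in regulatory libraries. No label says that the WT conventional cells were naive, and this order holds for CPM. As a percentage of the 6 T cell genes, Tcf7 and Lef1 kept their highest mean in WT conventional libraries. On that measure Satb1 was highest in KO conventional libraries, and Bach2, Foxo1 and Foxp1 were highest in KO regulatory libraries. The part of NK, B cell and other transcripts from outside the T lineage in the levels of the 8 genes was not tested. The coefficient of variation within a group was at most 19.4% for 7 of the genes and reached 30.7% for Id2 in WT regulatory libraries.

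Likeness of pattern was measured as the root mean square difference of log2 CPM over the 12 libraries, each gene centred on its own mean. Among members the closest pairs were Bach2 and Foxo1 (0.090), Tcf7 and Lef1 (0.12), Foxo1 and Foxp1 (0.15) and Tcf7 and Satb1 (0.17). Id2 and Id3 differed by 0.90, and the least alike pair was Lef1 and Id3 at 1.67. Among all tested genes the closest to Tcf7 were Lef1 and Fam78a (both 0.12), and Fam78a was also the closest to Lef1 (0.088). Satb1 was closest to Gm11346 (0.072) and Pdk1 (0.11), Bach2 to Foxo1 (0.090) and Usp24 (0.097), and Foxo1 to Iqcc (0.074) and Add1 (0.080). Foxp1 was closest to Pacsin1 (0.084) and Taf4b (0.085), Id2 to Gpc1 (0.15) and F2rl2 (0.18), and Id3 to Ppp3ca and Sypl (both 0.11). All these genes were read from the same libraries, so their values share depth and makeup.

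Genes known to work with or under the 8 factors were read from the same fit. Beside the counts of each list stand the shares of all genes called in the same comparison. With scaling to 6 T cell genes the background is given as a number of the 15922 genes tested. Of 12 FOXO1-regulated genes, 8 were lower (25.4% of all genes) and none was higher in KO conventional cells, with a list median of -0.36 against -0.05 for all genes. The chemokine receptor gene Ccr7 fell by 1.07 on the log2 scale (SE 0.11, adjusted p = 2.40e-05), and Klf2, which encodes a factor for lymphocyte exit, fell by 0.53 (SE 0.05, adjusted p = 1.58e-05). In KO regulatory cells 3 of the 12 were lower (3.82% of all genes), among them Klf2 at -0.24 and Sesn1 at -0.32, and none was higher. Between cell types in WT 10 were lower (33.3% of all genes), among them the interleukin-7 receptor gene Il7r (-2.05, SE 0.19, adjusted p = 1.91e-06), and in KO 7 were lower and 3 higher (31.7% and 36.1%). The interaction was called positive for 4 of the 12 (8.86% of all genes), among them Ccr7 (0.81), Klf2 (0.30) and Il7r (0.84), and negative for none. Scaling to 6 T cell genes left 1 of the 12 lower and 1 higher in KO conventional cells (60 and 7006 of all genes). The list median was then 0.22 against 0.53 for all genes. In KO regulatory cells that scaling gave 3 higher and none lower (5116 and 41 of all genes). Between cell types it gave 3 higher and 3 lower in WT (9127 and 966) and 4 higher and 2 lower in KO (8296 and 1074). It left 1 positive interaction (30 of all genes). In KO conventional cells, 4 of 9 genes of the PI3K and AKT pathway upstream of FOXO1 were called with TMM scaling, 2 in each direction. The background there was 48.7% of all genes. Of these 9, the one called in KO regulatory cells (7.83% of all genes) was Inpp5d (0.37), which encodes the lipid phosphatase SHIP-1. Scaled to 6 T cell genes, 5 of the 9 were higher and none was lower in each of these comparisons. Of all genes, 7006 were higher in KO conventional and 5116 in KO regulatory cells on that scale.

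BACH2 is known to repress effector genes, and 16 effector transcription factors were read beside it. In KO conventional cells 13 were higher (23.3% of all genes) and none was lower, with a median of 1.75 against -0.05 for all genes. Runx2 rose from 3.77 ± 1.16 to 23.3 ± 4.21 CPM (log2 2.63, SE 0.21, adjusted p = 5.59e-06). Ahr, the aryl hydrocarbon receptor gene, rose from 6.30 ± 1.19 to 21.2 ± 4.89 CPM (1.75, SE 0.16, adjusted p = 1.18e-05), and Maf and Nfil3 rose by 1.74 and 2.24. The KO regulatory cells had 2 of the 16 higher (4.01% of all genes), Ahr (0.96) and Runx3 (0.46), and none lower. Between cell types in WT 11 were higher and 1 was lower (39.1% and 33.3% of all genes), the latter Runx3 (-0.86) and the former including Irf4 (3.27) and Ikzf2 (3.11). In KO 4 were higher and 5 lower (36.1% and 31.7%), and the interaction was called negative for 10 of the 16 (12.4%). With scaling to 6 T cell genes all 16 were called higher in KO conventional cells (7006 of 15922 genes) and 11 in KO regulatory cells (5116 of 15922). Between cell types that scaling gave 13 higher and none lower in WT (9127 and 966 of all genes). In KO it gave 8 higher and 2 lower (8296 and 1074), and 8 interactions were negative (921 of all genes). Macrophages, NK cells and B cells express several of these factors as well, their markers were higher in the same libraries, and their part in these counts was not tested.

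**Figure D5:**
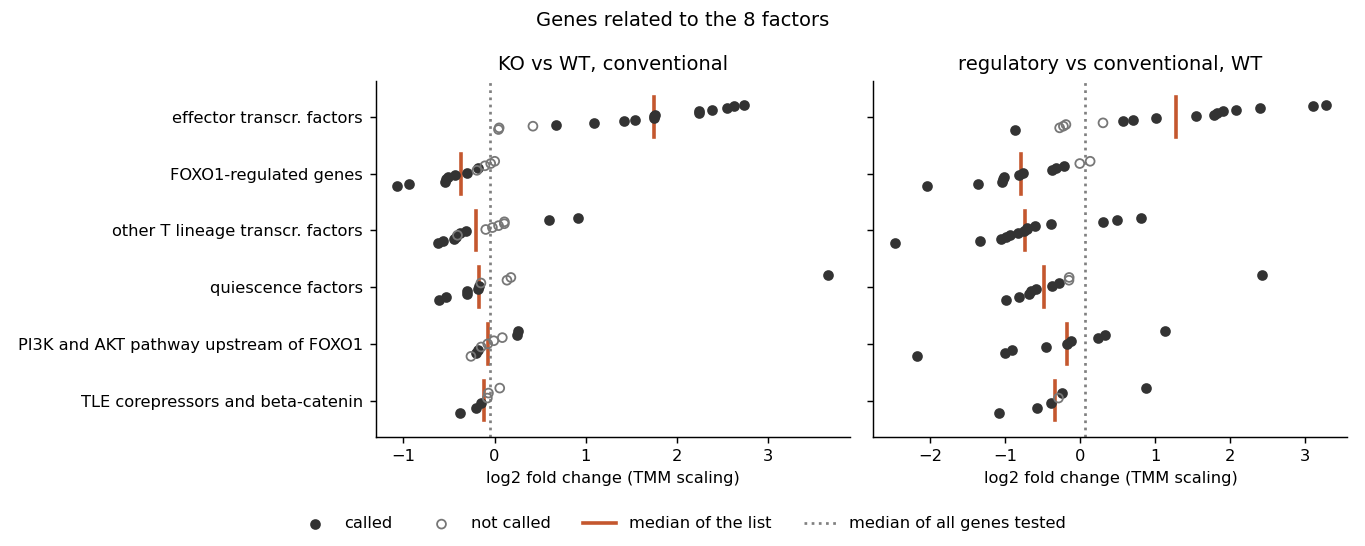
Log2 fold changes with TMM scaling (horizontal axis) of the genes in 6 lists (vertical axis) for KO against WT conventional cells and for regulatory against conventional WT cells, with filled points for genes called, open points for others, a bar for the list's median and a dotted line for the median of all genes. Effector transcription factors lie to the right (13 of 16 higher in KO conventional cells, against 23.3% of all genes). Of 12 FOXO1-regulated genes 8 were lower there, against 25.4% of all genes.

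Genes of the members' protein partners were called in both directions. Of the 3 E protein genes bound by ID proteins, Tcf12 fell by 0.15 on the log2 scale in KO conventional (SE 0.05, adjusted p = 0.0341) and by 0.23 in KO regulatory cells (SE 0.05, adjusted p = 0.0223), directions that turned with scaling to 6 T cell genes (0.44 and 0.30). Tcf3, which encodes E2A, was at 129 ± 2.10 CPM (WT) and 119 ± 6.24 CPM (KO) in conventional libraries and averaged 214 and 212 CPM in regulatory ones. It was higher in regulatory than in conventional cells by 0.73 for WT and 0.83 for KO. Tcf4, a gene of B cells and plasmacytoid dendritic cells, rose by 1.46 in KO conventional cells and by 3.48 between cell types in WT, next to the B cell markers above. Of 6 TLE corepressor and beta-catenin genes, 3 were lower in KO conventional cells (Tle5 -0.38, Tle4 -0.20, Ctnnb1 -0.15) and none was called in KO regulatory cells. The shares of all genes were 25.4% lower in the former and 7.83% called in the latter. With scaling to 6 T cell genes none of these 6 was lower. On that scale 1 was higher in KO conventional (7006 of all genes) and 5 in KO regulatory cells (5116 of all genes). Tle5 (0.21), Tle4 (0.39) and Ctnnb1 (0.44) turned in KO conventional cells. Tle4 fell by 1.08 between cell types in WT. Of the 3 small MAF genes, Mafg was higher (0.58) and Maff lower (-0.71) in KO conventional cells, and none was called in KO regulatory cells. The shares of all genes called were 48.7% and 7.83%. Scaled to 6 T cell genes, 2 of the 3 small MAF genes were higher and none was lower in each, beside the same 7006 and 5116 genes.

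Other lineage and quiescence factors and the members' own relatives gave mixed counts. In KO conventional cells 6 of 14 other T lineage transcription factors fell and 2 rose (25.4% and 23.3% of all genes). Klf3 stood at -0.57, Ets1 at -0.62, Zeb1 at -0.42 and Bcl6, the follicular helper factor, at 0.91. In KO regulatory cells 3 were lower (Klf3 -0.50, Themis -0.52, Elf1 -0.21), against 3.82% of all genes. Between cell types in WT 11 were lower and 3 higher (33.3% and 39.1% of all genes), with Themis, a T cell receptor signalling gene, at -2.47. Scaling to 6 T cell genes turned these counts to 7 higher and none lower in KO conventional cells and 5 higher and none lower in KO regulatory cells. Between cell types in WT it gave 3 higher and 2 lower. Of all genes that scaling called 7006, 5116 and 9127 higher and 60, 41 and 966 lower in these comparisons. The 10 quiescence factors included 6 that fell in KO conventional cells (25.4% of all genes) and 1 that rose (23.3%). The latter was Klf4 (3.65), which monocytes also express. In KO regulatory cells 2 of the 10 were lower (3.82% of all genes). Scaled to 6 T cell genes, 4 of the 10 were higher in KO conventional and 2 in KO regulatory cells, and none was lower in either. The same 7006 and 5116 of all genes were higher on that scale. Of 12 relatives of the members 9 were tested, of which 5 rose and 2 fell in KO conventional cells (23.3% and 25.4% of all genes). Among these were Tcf7l2 (2.06), Bach1 (0.45), Foxp4 (-0.46) and Foxo4 (-0.26). Scaled to 6 T cell genes, 6 of the 9 were higher in KO conventional (7006 of all genes) and 5 in KO regulatory cells (5116). None of the 9 was lower. Of the relatives, 1 was called in KO regulatory cells (7.83% of all genes). It was Tcf7l1, which rose from 3.72 ± 1.20 to 10.3 ± 2.04 CPM (log2 1.45, SE 0.25, adjusted p = 0.00764).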

How the data were processed

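The deposited table gives raw read counts by Ensembl gene identifier, from 12 libraries of a stranded mRNA kit, made by the authors with STAR (version listed as 1.7.20) on GRCm38, per the submitters' processing notes, and counted on the reverse strand per the file name. The annotation release is not given in the sources used here. Symbols were found for 45143 of 45706 genes, and 4 tallies of reads in no gene were left out. Genes that overlap members on the same strand held few counts.

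Genes were filtered with filterByExpr (minimum count 10, minimum total 15) and scaled with TMM. A model with the 4 groups was fitted to all 12 libraries in R 4.3.3 with edgeR 4.0.16 and tested by the two-sided quasi-likelihood F test with Benjamini-Hochberg adjustment over all genes and a threshold of 0.05. CPM use TMM-scaled totals. SEs are absolute log2 fold changes over the square root of F, and 95% intervals use 8 residual degrees of freedom. The procedure was tested on simulated data in which few genes changed, so that test does not cover the scaling where many genes change. Python 3.11.15, SciPy 1.17.1 and matplotlib 3.10.9 gave exact permutation tests and plots.

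Alternatives were RLE, upper-quartile and T cell gene scaling, DESeq2 1.42.0, limma-voom (limma 3.58.1), no filter, a mean of 5 CPM, a fit of only the compared groups, a block for the replicate number, leaving out each library, no libraries with Xist and Y-linked reads, and a threshold of 0.01. A term for Xist, and the minimum of 10 CPM that defines libraries with Xist and Y-linked reads, were chosen after seeing the data. Members, gene lists and marker lists were chosen with earlier results of these data known. Named are Coro1a, the members, lineage genes, up to 4 genes per list with the smallest p in a comparison (mean of 1 CPM or more), relatives and E proteins, and the 2 genes most like each member. The text prints a part of these, and some genes the rule chose are left out. The lists are relatives, E proteins, TLE corepressors and beta-catenin, small MAF partners, FOXO1-regulated genes, the PI3K and AKT pathway, effector, other T lineage and quiescence factors, and 12 marker lists.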

Additional observations from a re-analysis of the deposited data

Results flagged for a closer look

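For 3 of the 8 genes the knockout difference itself differed between regulatory and conventional T cells by an interaction term in edgeR's quasi-likelihood test, which is why they are listed here. The same term was called for 21.3% of all genes (8.86% positive, 12.4% negative). At a threshold of 0.01 it was called for 0 of the 8. The term was 0.58 for Bach2, 0.43 for Foxo1 and 0.41 for Foxp1 on the log2 scale, each positive, since the 3 genes fell by 0.67, 0.60 and 0.71 in KO conventional cells and differed by -0.10, -0.16 and -0.30 in KO regulatory cells. The KO conventional libraries were below every WT conventional library for each of them. The part of transcripts from other cell types in the 3 terms was not tested. All 3 calls were lost without KO regulatory replicate 2 (0.44, 0.31 and 0.35 for Bach2, Foxo1 and Foxp1), with scaling to 6 T cell genes (0.49, 0.37 and 0.35) and with a filter at a mean of 5 CPM (0.48, 0.34 and 0.32). That of Foxo1 was also lost without WT conventional replicate 2 (0.41) or WT regulatory replicate 2 (0.40).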

How the results depend on the processing

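Some counts of genes called moved by over 1.5 times. For KO against WT conventional cells this was 4835 of 10496 genes tested with a mean of 5 CPM or more, beside 7749 of 15922. For KO against WT regulatory cells the counts were 253 (threshold 0.01), 5157 (scaled to 6 T cell genes), 1989 (DESeq2) and 313 (only the groups compared). For the difference of knockout effects they were 1425 (threshold 0.01) and 951 (6 T cell genes). Members called moved to 2 in KO conventional cells (6 T cell genes). In KO regulatory cells they moved to 0 (threshold 0.01, only the groups compared), 1 (upper-quartile scaling, 6 T cell genes, replicate block, and without the libraries with Xist and Y-linked reads) and 5 (DESeq2). For the difference of effects they moved to 0 (threshold 0.01, 6 T cell genes) and 1 (mean of 5 CPM). Leaving out each library gave 439 to 1974 genes called and 0 to 2 members in KO regulatory cells, 6073 to 8100 and 7 to 8 in KO conventional cells, and 2314 to 3793 and 0 to 4 for the difference of effects. Between cell types it gave 10878 to 11727 genes with 7 members throughout in WT and 10054 to 11110 with 5 to 7 members in KO. Signs that turned with scaling to 6 T cell genes were those of Tcf7 (0.13), Satb1 (0.20), Bach2 (0.40), Foxo1 (0.36), Foxp1 (0.23) and Id3 (0.51) in KO regulatory cells, Satb1 (0.037) in KO conventional cells, Foxp1 (0.25) and Id2 (0.52) between cell types in WT, and Bach2 (0.34) and Foxo1 (0.35) in KO. Without the libraries with Xist and Y-linked reads the signs of Bach2 (0.052) and Id3 (0.017) in KO regulatory cells and of Id2 between cell types in WT (0.11) turned. Those of Foxp1 between cell types in KO turned with upper-quartile scaling (-0.0051) and a mean of 5 CPM (-0.026), and that of Id3 in KO regulatory cells with the latter (0.0055). Leaving out a library gave ranges across 0 for Bach2 (-0.17 to 0.0018) and Id3 (-0.10 to 0.042) in KO regulatory cells, Foxp1 between cell types in KO (-0.079 to 0.091) and Id2 in WT (-0.35 to 0.15). The Id3 to Id2 differences ranged from -1.17 to -0.79, -0.97 to -0.41, 1.08 to 1.64 and 1.51 to 1.82. The cause of these shifts was not tested, beyond the fewer genes or libraries that some settings hold. Libraries of equal number did not vary together (correlations from -0.52 to 0.18, best with their own number in 11 of 36 cases). With the replicate number as a block, 7279, 856, 11244, 10478 and 2753 genes and 8, 1, 7, 6 and 3 members were called in the 5 comparisons, and the Id3 to Id2 differences were -0.97, -0.64, 1.31 and 1.64. The depth and 3 libraries a group limit what small differences could be called.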
